A study of Mus musculus with 16 samples.

Results

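The genes described here are the nuclear genes that encode the subunits of oxidative phosphorylation in the mouse, followed in ear skin of the same animals at 24 and at 30 months. They were chosen by symbol alone from the genes counted: the protein-coding families Nduf (a, b, c, s and v), Sdh, Uqcr, Cox4 to Cox8 and Atp5, together with Cyc1 and Cycs and without the Ndufaf assembly factors. This gave 86 of the 45706 genes in the counts, of which 37 fell to complex I, 4 to complex II, 9 to complex III, 18 to complex IV and 17 to complex V, with Cycs for cytochrome c. The assignment to a complex followed the symbol, so that Ndufa4 and Ndufa4l2 were kept with complex I although their products are known from cytochrome c oxidase.

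RNA-seq libraries were prepared from total RNA of ear clips of 8 males of the inbred mouse strain C57Bl/6J. The design was longitudinal and asks how expression changes within ageing individuals. Each mouse, here named by its number (13, 14, 21, 29, 43, 50, 64 or 75), gave a clip of 1 ear at 24 months, the group called young in the labels, and a clip of the second ear at 30 months, the group called old. The labelled ages were 23.8 to 24.4 and 29.0 to 30.1 months, and no treatment or altered allele is named for any animal. A whole ear clip holds epidermis, dermis, cartilage, fat, vessels and muscle, and in such bulk samples fewer cells of a type and less RNA per cell cannot be told apart.

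The reads assigned to genes numbered from 22967222 to 36162431 a library (median 28922265), of which the 86 genes took 0.561% to 0.837%. Levels are given as CPM, the counts scaled to a common library size with TMM normalisation, and comparisons between genes as CPM per kilobase of exon (RPKM). Keratinocyte markers were abundant in each of the 16 libraries, with 8260 to 16510 summed CPM for 5 basal and 13270 to 19880 for 5 differentiated markers, so the labelled tissue was borne out. The summed CPM of 18 skeletal muscle markers, by contrast, spanned 1519 to 17060, and its highest value came from the 24-month library of mouse 43. Of the 56 pairs of libraries within an age group, 0 were alike within counting noise.

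Oxidative phosphorylation passes electrons from NADH through complex I, and from succinate through complex II, by way of complex III and cytochrome c to oxygen at complex IV, and uses the proton gradient built on the way to make ATP at complex V. All complexes except complex II combine nuclear with mitochondrially encoded subunits. Several complex IV subunits exist as a ubiquitous and a tissue-restricted isoform, among them Cox6a2, Cox7a1 and Cox8b of heart and skeletal muscle. Cox7a1 and Cox8b are also known from brown fat, although all are called muscle isoforms below.

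Promoter sequence was inspected because these genes are known targets of nuclear respiratory factor 1 (NRF1) and of the ETS factor GABP, while muscle genes often carry an E-box bound by myogenic factors. RefSeq promoter windows of 300 bases (GRCm38.p6, 250 bases before the start and 50 after) were at hand for 69 of the members, in 74 windows. For 63 of these 74 the end of the window was found in the first part of an annotated transcript. The NRF1 motif, whose letters are those in the first capitals of Cox6a1 with any base allowed at the fifth, occurred on either strand in 24.3% of these windows and in 4.6% of all windows, the YY1 motif AANATGGCG in 13.5% and 2.38%, and the ETS motif CCGGAAG in 21.6% and 8.86%. The E-box CAGCTG was found in 8.11% of member windows against 16.3% of all windows, and TATAAA in 10.8% against 13.6%. Of the muscle isoforms, Cox8b and 1 other had a window, and neither held the NRF1, YY1 or ETS motif. The 250 bases before the start are shown for Cox6a1 and Sdhd, which carry both the NRF1 and the ETS motif, and for the isoform pair Cox8a and Cox8b, the latter with the widest range of levels among the members. Capitals mark the motifs, which begin 162 and 117 (NRF1) and 16 bases (ETS) before the start in Cox6a1, 79 (NRF1) and 46 bases (ETS) before it in Sdhd, and 19 bases (E-box) before it in Cox8b. These starts are those of RefSeq. The gene span of Cox6a1 in the GENCODE annotation reaches to 115348981 and takes in its ETS motif. Cox8a held none of these 5 motifs in full in the 250 bases before the start. Its ETS motif was found only in the window of 300 bases, so it lies after the start or across it.
Cox6a1, chr5:115348959-115349208, minus strand: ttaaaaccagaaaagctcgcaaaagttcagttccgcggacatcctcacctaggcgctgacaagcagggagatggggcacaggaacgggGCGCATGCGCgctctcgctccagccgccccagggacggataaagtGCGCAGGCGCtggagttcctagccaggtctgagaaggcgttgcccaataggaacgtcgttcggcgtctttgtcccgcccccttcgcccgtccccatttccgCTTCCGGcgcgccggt
Sdhd, chr9:50603850-50604099, minus strand: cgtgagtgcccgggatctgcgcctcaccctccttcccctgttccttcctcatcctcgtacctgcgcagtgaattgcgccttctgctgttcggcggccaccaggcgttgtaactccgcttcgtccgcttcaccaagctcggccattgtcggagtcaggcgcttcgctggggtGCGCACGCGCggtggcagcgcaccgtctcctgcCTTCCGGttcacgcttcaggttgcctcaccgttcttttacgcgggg
Cox8a, chr19:7217617-7217866, minus strand: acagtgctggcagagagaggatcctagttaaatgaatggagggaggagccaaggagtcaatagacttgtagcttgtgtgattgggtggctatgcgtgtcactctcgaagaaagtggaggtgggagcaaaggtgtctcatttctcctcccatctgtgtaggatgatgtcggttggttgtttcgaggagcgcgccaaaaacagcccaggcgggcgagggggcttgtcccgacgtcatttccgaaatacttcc
Cox8b, chr7:140900447-140900696, minus strand: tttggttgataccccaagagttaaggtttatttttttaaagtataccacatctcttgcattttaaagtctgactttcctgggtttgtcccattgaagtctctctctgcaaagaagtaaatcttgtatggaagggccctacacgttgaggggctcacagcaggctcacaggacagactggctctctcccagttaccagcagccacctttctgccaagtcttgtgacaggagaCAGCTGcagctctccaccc

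A motif match is a description of the letters and not of binding.

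Levels per exon length spread widely within each complex. Of the 86 genes, 84 passed the filter on low counts, while Cox7b2 was at 0 in every library and Cox8c, the testis isoform, had 1 read in all libraries together. The highest mean levels belonged to the catalytic core of ATP synthase, with 195.4 ± 23.6 RPKM (SD, n = 16) for Atp5a1 and 169.3 ± 22.2 for Atp5b, followed by the complex IV subunits Cox4i1 (154.5 ± 14.7), Cox8a (145.2 ± 15.3), Cox6b1 (139.2 ± 22.7) and Cox6a1 (125.9 ± 10.3). The median of a complex was 57.7 RPKM for complex III, 53.6 for complex IV, 46.8 for complex II, 32.8 for complex I and 29.9 for complex V. Complex I ran from Ndufa4 (125.8) and Ndufb9, an accessory subunit (91.8), down to Ndufb2 (2.52). In complex II the iron-sulphur subunit Sdhb (42.6) stood between the flavoprotein Sdha (51.1) and the membrane anchor Sdhc (24.1), and the second anchor Sdhd was highest (63.0). Complex III ran from Uqcr10 (92.5) and the Rieske protein gene Uqcrfs1 (69.9) over the cytochrome c1 gene Cyc1 (46.2) to Uqcrq (36.2). Cycs, which encodes the mobile carrier itself, reached 6.96 ± 1.27 RPKM.

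**Figure D1:**
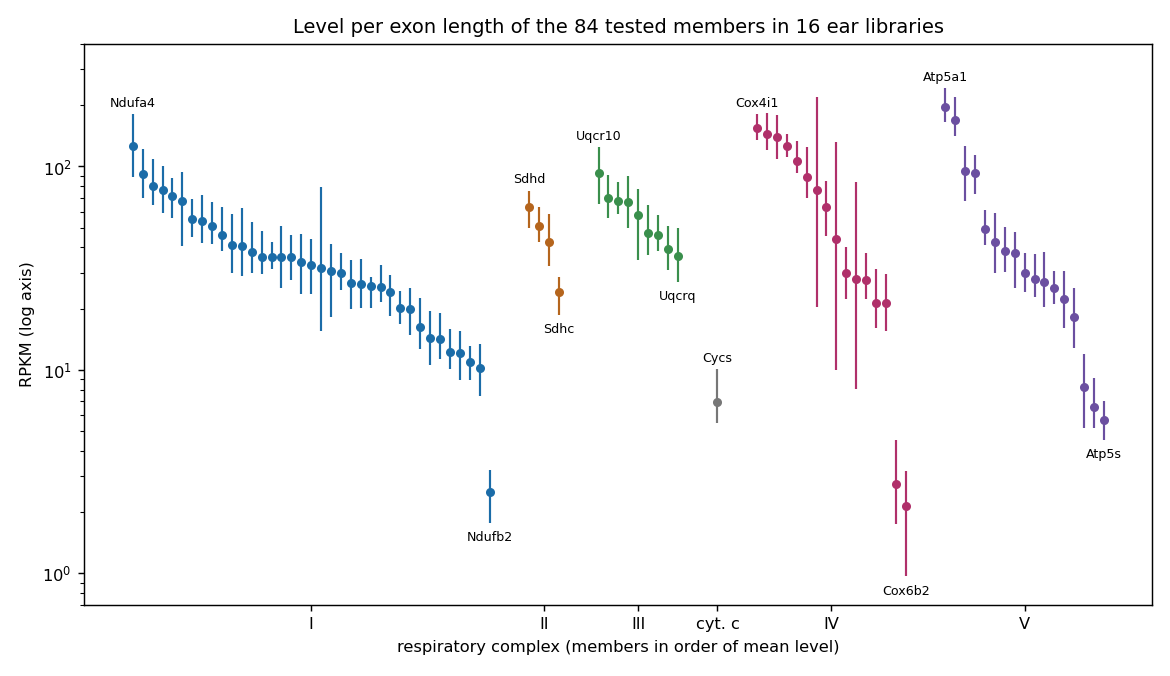
Level of the 84 tested genes as RPKM on a log axis, by complex and in order of mean level; points are means and lines the lowest to highest of 16 libraries. Atp5a1 (195.4) is highest and Cox6b2 (2.13) lowest, and the 3 long lines in complex IV are Cox6a2, Cox8b and Cox7a1.

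The exon length used is the union of all annotated exons, which lowers RPKM for genes with long minor transcripts, such as Ndufb2 with 5628 and Atp5l with 6443 bases against a median of 1578 over the tested members. Reads can also be shared with copies: 10 processed pseudogenes of 7 members held 2.23% as many reads as the members together, and as much as 112.5% of the parent's own count for Ndufb4 and 100.9% for Atp5l.

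In most isoform families the ubiquitous member dominated. Cox4i1 supplied 96.8% to 98.8% of the Cox4i RPKM at 24 months and Cox6b1 97.4% to 99.0% of the Cox6b RPKM, which left small shares to Cox4i2, an isoform of lung and of low oxygen, and to Cox6b2, known from testis. The 3 genes for the same c subunit of ATP synthase kept a nearly fixed order, with median shares at 24 months of 73.4% for Atp5g3, 20.4% for Atp5g2 and 6.42% for Atp5g1, and at 30 months of 74.2%, 19.5% and 6.39%. Atp5g3 did not leave the range of 69.9% to 75.4% in any library. The muscle isoforms behaved otherwise. Cox6a2 supplied 14.6% to 63.98% of the Cox6a RPKM at 24 months and 20.2% to 56.6% at 30 months, Cox7a1 10.4% to 42.4% and 10.03% to 36.4% of Cox7a1 plus Cox7a2, and Cox8b 7.11% to 48.3% and 11.8% to 39.0% of Cox8a plus Cox8b. Ndufa4l2, a hypoxia-inducible paralogue, took 15.45% to 28.4% beside Ndufa4 at 24 months and 10.4% to 38.5% at 30 months.

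The comparison of 30 with 24 months asked whether these genes change with age within an animal. Every 30-month clip came from the second ear, so age and the ear clipped cannot be told apart. Summed over the 84 tested genes, the level was 6782 ± 888 CPM at 24 months and 7157 ± 832 CPM at 30 months (SD, n = 8 each). In mice 13, 14, 21, 50, 64 and 75 the sum was higher at 30 months, from 6706 to 8119 CPM in mouse 13, from 6681 to 7968 in mouse 14, from 5862 to 7377 in mouse 21, from 7247 to 7297 in mouse 50, from 6327 to 7627 in mouse 64 and from 6317 to 6948 in mouse 75. It was lower in mouse 29 (6369 to 5779 CPM) and in mouse 43 (8744 to 6140 CPM). The groups overlapped over most of their range, and the 24-month library of mouse 43 held the highest sum of all.

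No member changed past the threshold. The edgeR quasi-likelihood test paired by mouse called 0 of the 84 genes at a Benjamini-Hochberg adjusted p under 0.05, as it did for 0.0% of all 21526 genes tested, and DESeq2's Wald test called 0 members against 1.17% of genes. At an unadjusted p under 0.05, edgeR gave 0 members higher (4.86% of all genes) and 1 member lower (7.18% of all genes). DESeq2 gave 1 member in each direction, beside 1107 genes higher and 1293 lower of the 21526. The signs were less even than these counts. The fitted log2 fold change was positive for 76 of 84 members, against 51.7% of all genes, with a median of 0.081 over members and 0.007 over all genes. Its median was 0.093 in complex I, 0.048 in complex II, 0.070 in complex III, 0.094 in complex IV and 0.051 in complex V.

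**Figure D2:**
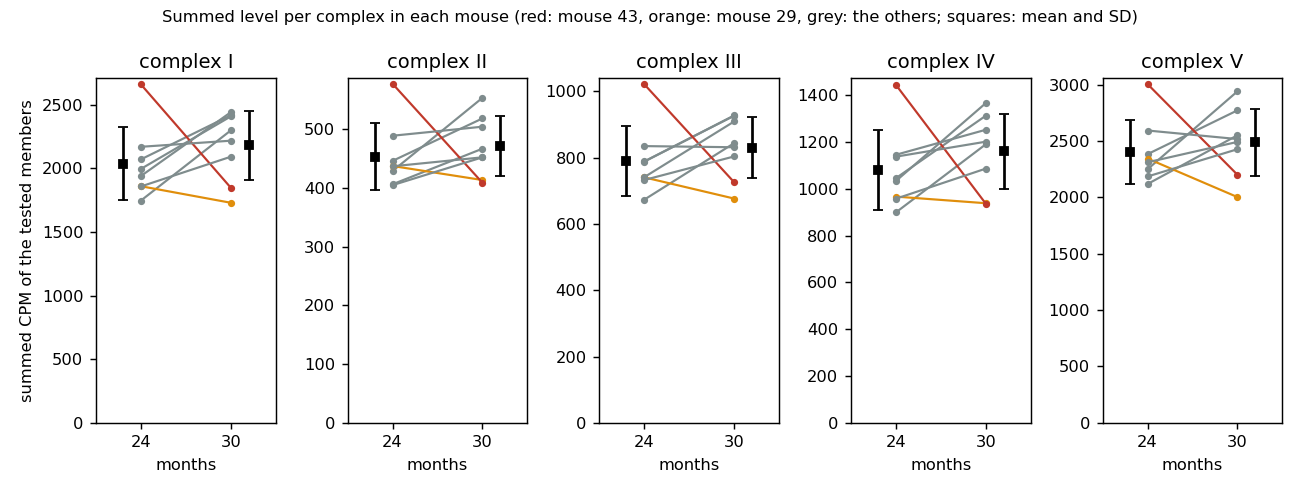
Summed CPM of the tested genes of each complex in each mouse at 24 and 30 months, with mouse 43 in red, mouse 29 in orange and the other mice in grey; black squares are means with SD of 8 libraries. In all 5 complexes mouse 43 starts highest at 24 months and falls below the 30-month mean.

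The members moved together within a mouse but not alike between mice. At 30 months 80 of 84 genes were higher in mouse 14 (49.9% of all genes), 80 in mouse 21 (48.2%), 76 in mouse 64 (50.9%), 76 in mouse 75 (50.5%), 64 in mouse 13 (47.7%) and 54 in mouse 50 (47.2%). By contrast, 15 were higher in mouse 29 (49.4%) and 0 in mouse 43 (50.4%). The median within-mouse change in log2(CPM + 1) was 0.39 in mouse 64, 0.37 in mouse 21, 0.28 in mouse 14, 0.14 in mouse 75, 0.12 in mouse 13, 0.04 in mouse 50, -0.14 in mouse 29 and -0.58 in mouse 43. The mean of these medians was 0.08 ± 0.32 (SD, n = 8 mice), so the spread between mice exceeded the mean. For 66 of the 84 members the changes over the 8 mice correlated above 0.8 (Pearson's r) with the median of the other members, as did 4.13% of other genes. Without mouse 43 this held for 51 members and 3.65% of other genes. These correlations share libraries and their normalisation and are given as a description. The pattern of 6 mice higher and mice 29 and 43 lower was shown by 30 members, among them Ndufb9, Ndufs7, Sdhd, Uqcr10, Uqcrq, Cox6a2, Cox8b, Atp5g3 and Cycs, and by 1.57% of all genes. This pattern was read from the summed level of the members themselves, so the count describes them and tests nothing.

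**Figure D3:**
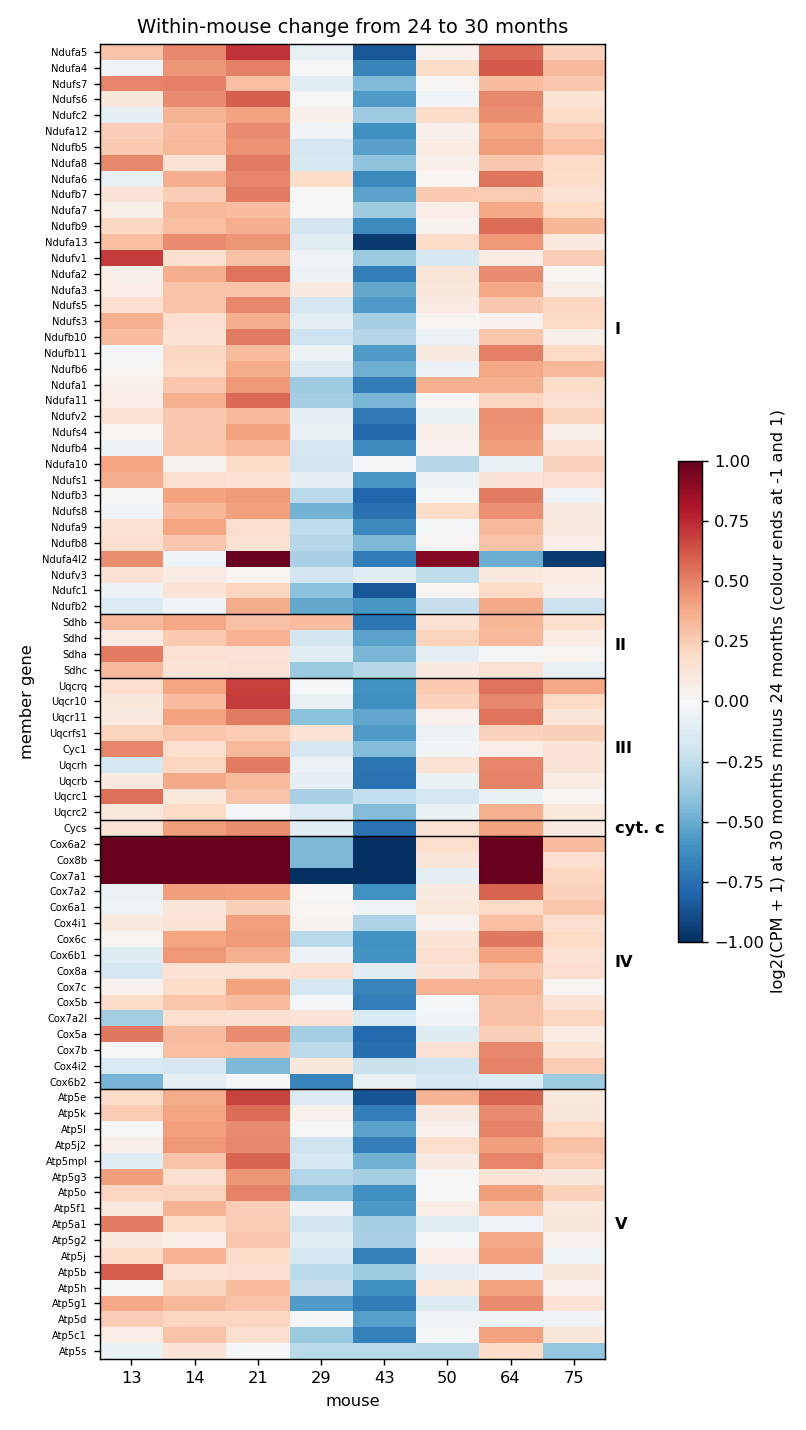
Within-mouse change of 83 tested genes from 24 to 30 months as the difference in log2(CPM + 1), rows grouped by complex and ordered by fitted fold change, columns by mouse; red is higher at 30 months. The columns of mice 43 and 29 are mostly blue (0 and 15 of all 84 tested genes higher), while the rows of Cox6a2, Cox8b and Cox7a1 hold the strongest colours.

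Mouse 43 weighed most on the result. Without it, 40 members were higher at an unadjusted p under 0.05 in edgeR (8.97% of all genes) and 1 was lower (8.62% of all genes), the median log2 fold change was 0.177, and still no adjusted p fell under 0.05, the lowest being 0.1035 for Sdhb. The 40 comprised 21 of 37 genes of complex I, 2 of 4 of complex II, 3 of 9 of complex III, 8 of 16 of complex IV, 5 of 17 of complex V and Cycs. With any other mouse left out, at most 2 members were higher at that threshold, and the median log2 fold change ranged from 0.038 to 0.119.

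In complex I, whose members oxidise NADH, the smallest p belonged to Ndufs7, an iron-sulphur subunit of the peripheral arm. Its level was 52.6, 54.3 and 78.8 CPM (lowest, median and highest) at 24 months and 50.7, 64.6 and 83.1 CPM at 30 months, a log2 fold change of 0.17 ± 0.10 (SE, edgeR adjusted p = 0.536), higher in 6 of 8 mice. The 2 ages overlapped over nearly the whole range. Ndufa4 had 123.2, 159.5 and 223.9 CPM at 24 months and 141.5, 179.3 and 249.6 CPM at 30 months (log2 fold change 0.18 ± 0.13). Ndufa4l2 had the widest range outside the muscle isoforms (5.11-fold), with 25.7, 31.9 and 39.8 CPM at 24 months and 16.99, 27.3 and 86.8 CPM at 30 months. Its within-mouse change ran from -0.955 in mouse 75 to 1.14 in mouse 21, and its fitted log2 fold change was -0.002 ± 0.24 with a sign that varied among settings. Of the 37 genes, 33 had a positive fold change, the exceptions being Ndufa4l2, Ndufb2, Ndufc1 and Ndufv3.

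All 4 genes of complex II had positive fold changes, from 0.02 (Sdhc and Sdha) over 0.08 (Sdhd) to 0.16 ± 0.11 for Sdhb, the subunit that hands electrons on to ubiquinone (edgeR adjusted p = 0.583). Sdhb was at 72.8, 86.3 and 130.2 CPM at 24 months and at 78.6, 101.5 and 116.0 CPM at 30 months. It was higher at 30 months in 7 of 8 mice, by 0.15 to 0.39 on the log2 scale, and lower in mouse 43 (-0.72), which held both the highest 24-month and the lowest 30-month value. In complex III, Uqcrq, a small accessory subunit, had the largest fold change, 0.23 ± 0.13 (edgeR adjusted p = 0.479), with 49.4, 59.0 and 90.9 CPM at 24 months and 49.8, 75.7 and 85.7 CPM at 30 months. Uqcrfs1 stood at 75.8, 88.4 and 124.4 CPM and then at 83.7, 98.4 and 109.7 CPM, and Cyc1 at 82.7, 93.2 and 124.9 CPM and then at 82.9, 101.7 and 122.4 CPM. Cycs moved from 18.7, 21.6 and 34.5 CPM to 18.8, 25.1 and 29.7 CPM (log2 fold change 0.11 ± 0.13). For Sdhb, Uqcrq, Uqcrfs1, Cyc1 and Cycs the highest value at 24 months came from mouse 43 and exceeded every 30-month value, whereas for Sdha mouse 13 at 30 months (261.5 CPM) lay above mouse 43 at 24 months (260.5 CPM).

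Cox6b2 (ENSMUSG00000051811, GRCm38 chr7:4751792-4753094, minus strand) was the single member with an unadjusted p under 0.05 and the single member to move in the same direction in all 8 mice, lower at 30 months as were 1.69% of all genes, while 0 members and 1.08% of genes were higher in all 8. It had 2.92 CPM at 24 and 1.85 at 30 months in mouse 13, 2.64 and 2.42 in mouse 14, 2.35 and 2.30 in mouse 21, and 2.27 and 1.07 in mouse 29. The pairs of the remaining mice were 1.915 and 1.79 (mouse 43), 2.18 and 1.83 (mouse 50), 3.30 and 2.91 (mouse 64) and 3.515 and 2.52 CPM (mouse 75). The means were 2.64 ± 0.57 and 2.09 ± 0.57 CPM, the ranges of the 2 ages overlapped, and the log2 fold change was -0.36 ± 0.14 (SE, edgeR adjusted p = 0.351). The unadjusted p rose above 0.05 when mouse 13, 29 or 75 was left out. The ubiquitous Cox6b1 had 76.9, 93.2 and 123.2 CPM at 24 months and 81.1, 99.2 and 127.3 CPM at 30 months.

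In complex V, 15 of 17 fold changes were positive. Atp5b, the catalytic beta subunit, had 611.8, 706.3 and 868.4 CPM at 24 months and 600.3, 726.5 and 929.2 CPM at 30 months (log2 fold change 0.03 ± 0.10), and Atp5a1, the alpha subunit, 527.8, 596.9 and 734.8 and then 518.7, 631.2 and 760.4 CPM (0.05 ± 0.10). Each was higher in 4 of 8 mice. Atp5g3 moved from 175.1, 191.5 and 231.9 to 160.0, 205.5 and 247.6 CPM, and Atp5g2 and Atp5g1 had fold changes of 0.05 and 0.03. The smallest p belonged to Atp5s, known as coupling factor B, which was lower in 6 of 8 mice, with 12.1 ± 1.2 CPM at 24 and 11.1 ± 1.6 CPM at 30 months (log2 fold change -0.13 ± 0.09, edgeR adjusted p = 0.573).

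The 3 muscle isoforms of complex IV spanned the widest ranges of all members, 10.8-fold between the lowest and the highest library for Cox6a2 (ENSMUSG00000030785), 10.4-fold for Cox7a1 (ENSMUSG00000074218) and 13.2-fold for Cox8b (ENSMUSG00000025488), against 1.74-fold for Ndufb9 and 1.30-fold for Cox6a1. Cox6a2 had 25.01 CPM at 24 months and 110.1 at 30 months in mouse 13, 29.9 and 86.8 in mouse 14, 13.8 and 62.1 in mouse 21, and 19.4 and 51.8 in mouse 64. It had 64.6 and 73.3 CPM in mouse 50 and 30.25 and 37.8 in mouse 75, but 32.4 and 23.4 in mouse 29 and 148.5 and 20.7 in mouse 43. Thus 6 mice were higher and 2 lower at 30 months, and the 24-month library of mouse 43 alone exceeded every 30-month library. The log2 fold change was 0.66 ± 0.51 for Cox6a2, 0.59 ± 0.52 for Cox8b and 0.32 ± 0.49 for Cox7a1 (SE), with edgeR adjusted p-values of 0.615, 0.658 and 0.808. Their ubiquitous partners varied far less. Cox6a1 lay between 78.05 and 91.8 CPM at 24 months and between 80.4 and 101.0 CPM at 30 months, Cox8a between 74.9 and 98.3 and between 81.1 and 113.1 CPM, and Cox7a2 between 66.0 and 107.7 and between 68.2 and 118.1 CPM. Cox6a1 had the smallest standard error of the named members, with a log2 fold change of 0.11 ± 0.05 (edgeR adjusted p = 0.441), higher in 6 of 8 mice.

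**Figure D4:**
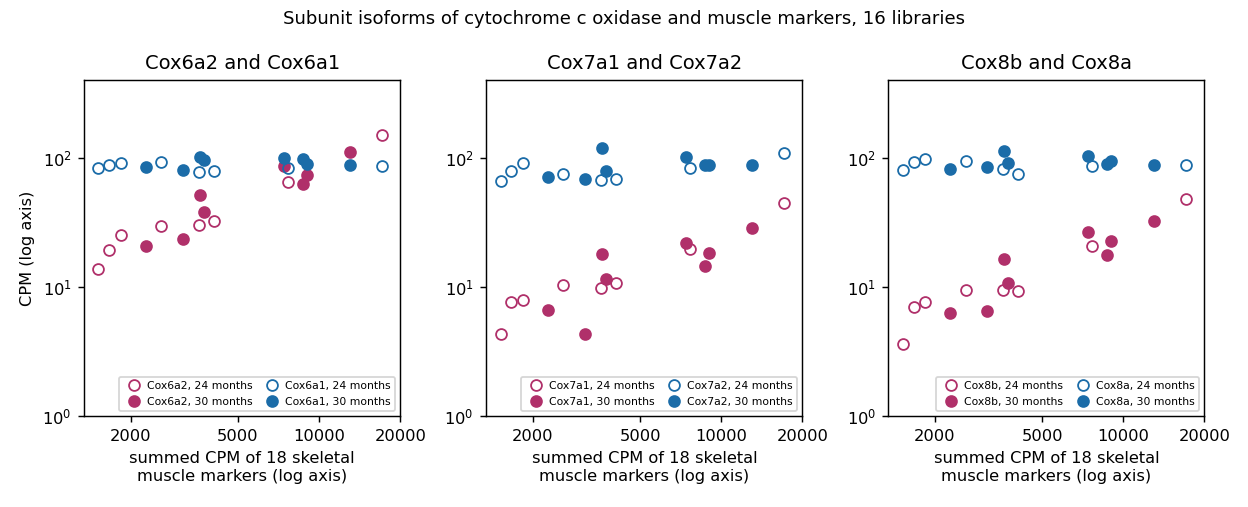
CPM of each muscle isoform (magenta) and its ubiquitous partner (blue) against the summed CPM of 18 skeletal muscle markers in the same library, both axes logarithmic, open circles for 24 and filled circles for 30 months. The muscle isoforms climb along the marker axis, Cox6a2 from 13.8 to 148.5 CPM, while Cox6a1 lies between 78.05 and 101.0 CPM throughout.

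Skeletal muscle markers moved with these changes. Their summed CPM went from 1839 to 13040 in mouse 13, from 2601 to 7423 in mouse 14, from 1519 to 8735 in mouse 21, from 1667 to 3611 in mouse 64, from 7640 to 8986 in mouse 50 and from 3572 to 3740 in mouse 75, but from 4067 to 3123 in mouse 29 and from 17060 to 2275 in mouse 43. All 18 markers were detected, and 0 of 18 passed an unadjusted p under 0.05 with age. Over the 8 mice the within-mouse change of Cox6a2 followed that of the markers with a Spearman's rho of 0.976 (exact permutation p = 0.0004) and a Pearson's r of 0.987 (exact permutation p = 7.4e-05), that of Cox7a1 with 0.952 (p = 0.0011, exact permutation) and 0.971 (p = 0.00012, exact permutation) and that of Cox8b with 0.952 (p = 0.0011, exact permutation) and 0.991 (p = 9.9e-05, exact permutation). Adjusted over the 3 relations tested, the exact permutation p was 0.0011 for each rho and 0.00012 for each r, where 4.96e-05 is the smallest that 8 mice allow. Without mice 13 and 43, the farthest from the median of the markers, r was 0.975, 0.912 and 0.989. The 3 isoforms were chosen because they are known from striated muscle. A relation to other muscle genes of the same libraries was therefore likely in advance, and these p-values give no independent support for it.

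The coefficients of the other members on the markers were smaller, and 14 of these 81 were called. In an edgeR fit with mouse, age and the log2 summed marker level, a fit added after the markers had been seen to move, the coefficient on the markers was positive for 83 of 84 members (46.2% of all genes) and passed an adjusted p under 0.05 for 17, all positive (3.21% of all genes were called positive and 0.186% negative). Per doubling of the markers the log2 level differed by 0.92 ± 0.06 for Cox8b, 0.90 ± 0.06 for Cox6a2 and 0.85 ± 0.08 for Cox7a1 (SE). These isoforms, for which such a relation was likely in advance, were the members called with each mouse left out in turn. Next came Ndufa4l2 at 0.26 ± 0.11, which was not called, Ndufa5 at 0.25 ± 0.05, Cox5a, a subunit without a muscle isoform, at 0.24 ± 0.03, and Ndufa13, a complex I subunit also known as GRIM-19, at 0.24 ± 0.04. The median over members was 0.154. Among the remaining called members were Ndufs1, Ndufs7 and Ndufa8 of complex I, Cyc1 of complex III, Cox5b of complex IV, and Atp5d, Atp5e, Atp5g1, Atp5g3 and Atp5k of complex V, with coefficients of 0.134 to 0.233. At the other end of complex IV stood Cox6a1 with 0.02 ± 0.03, Cox8a with 0.01 ± 0.04, Cox7a2l, a factor of respiratory supercomplexes, with 0.007 ± 0.05, Cox6b2 with 0.002 ± 0.08 and Cox4i2 with -0.03 ± 0.10. With 1 animal removed, the called count was 46 for mouse 13 (2.81% of all genes called), 18 for mouse 29 (3.74%), 12 for mouse 50 (3.35%) and 12 for mouse 75 (2.78%). It was 9 for mouse 64 (2.86%), 8 for mouse 14 (2.54%), 7 for mouse 21 (2.73%) and 3 for mouse 43 (1.25%). Without mouse 43 the called members were thus the muscle isoforms alone. In these fits 80 to 83 members had a positive coefficient.

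**Figure D5:**
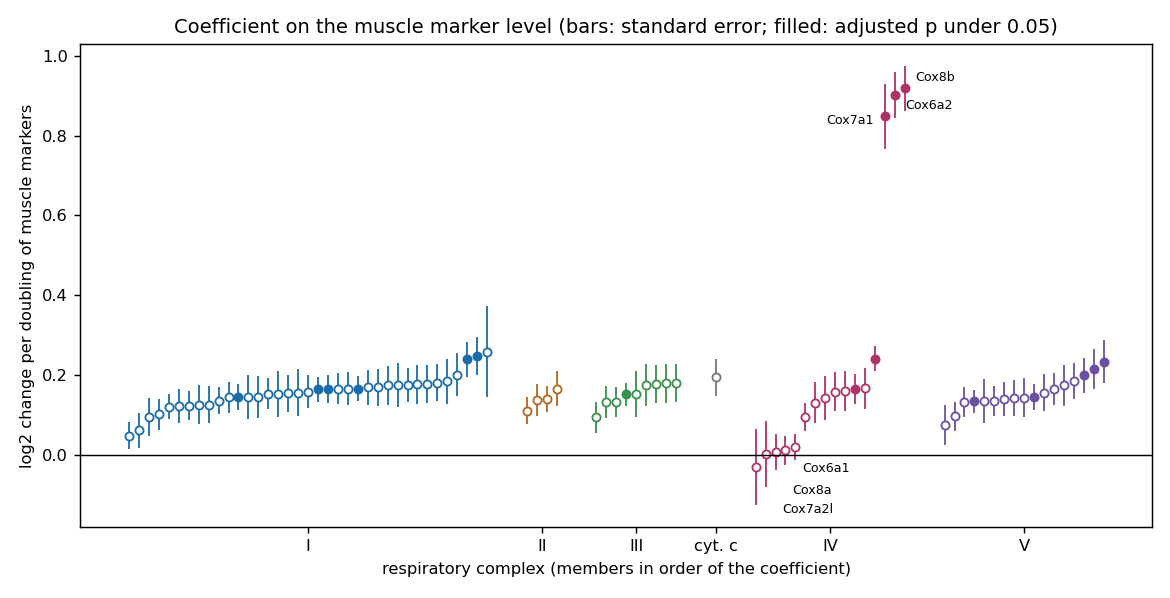
Coefficient of each tested gene on the log2 summed muscle marker level, as log2 change per doubling with its standard error, by complex; filled points have an adjusted p under 0.05. Cox7a1, Cox6a2 and Cox8b lie between 0.848 and 0.918 and the other members between -0.030 and 0.258.

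With the marker level in the fit, the age effect was positive for 35 of 84 members and its median was -0.009, against 0.004 over all genes, 0 members were higher and 1, Cox6b2, was lower at an unadjusted p under 0.05 (4.74% and 6.4% of all genes). The adjusted p of this fit passed 0.05 for 0 members and 0.0418% of genes. Ages and marker levels are not independent in these 8 mice, since 6 of 8 had more marker RNA at 30 months. Leaving out the muscle isoforms altered little in the paired comparison, in which 73 of the other 81 members had a positive fold change with a median of 0.078.

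The 13 mitochondrially encoded subunits, transcribed inside the organelle, took a like course. Their summed CPM went from 28010 to 38340 in mouse 13, from 27160 to 34850 in mouse 14, from 22770 to 28740 in mouse 21, from 31040 to 33890 in mouse 50, from 26080 to 35890 in mouse 64 and from 25820 to 26370 in mouse 75, and was lower at 30 months in mouse 29 (26560 to 21570) and mouse 43 (46670 to 22750). With age, 0 of 13 passed an unadjusted p under 0.05 in either direction, with a median log2 fold change of 0.06. On the muscle coefficient 11 of 13 were called (3.21% of all genes were called positive and 0.186% negative). So were 5 of 14 citric acid cycle enzymes and 8 of 18 glycolytic enzymes, but 0 of 24 components of mitochondrial protein import.

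Among the neighbouring pathways examined, the complex I assembly factors had the most members lower at 30 months. Of 15 complex I assembly factors 4 were lower and 0 higher at an unadjusted p under 0.05, namely Acad9 (log2 fold change -0.28 ± 0.09), Tmem126b (-0.24 ± 0.08), Tmem186 (-0.215 ± 0.06) and Nubpl (-0.19 ± 0.08), with edgeR adjusted p-values of 0.256 to 0.394. Tmem186 and Nubpl were lower in all 8 mice, and 0 of 15 were called on the muscle coefficient. Of 30 assembly factors of complexes II to V, Cox18 and Ttc19 were higher and Coa4 and Lyrm7 lower. Of 14 citric acid cycle enzymes, 18 glycolytic enzymes and 24 import components, 0 passed in either direction, with median log2 fold changes of 0.05, 0.10 and 0.06. The 14 transcription factors and coactivators of respiratory genes also gave 0 in either direction, with 0.06 ± 0.06 for Nrf1, the factor whose motif was counted in the promoters, -0.01 for Gabpa and 0.17 for the coactivator Ppargc1a. Ssbp1, the single-stranded DNA binding protein of mitochondria, was the 1 of 14 genes of mitochondrial DNA transcription and copying that was higher (0.15 ± 0.06), and Pdk3 the 1 of 12 of the pyruvate dehydrogenase complex and its kinases that was lower. Electron donors, carriers and uncoupling proteins gave 0 of 16. These counts stand beside 4.86% of all genes higher and 7.18% lower.

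Markers of other cell types in the clips were examined beside these values. Of 7 tested cartilage markers 4 were lower and of 5 endothelial markers 3 were higher at an unadjusted p under 0.05, with 105.9 to 185.5 and 87.3 to 136.5 summed CPM for cartilage and 77.5 to 112.9 and 81.2 to 236.6 for endothelium at 24 and 30 months. Of 8 fat cell markers 1 was higher, of 5 differentiated keratinocyte markers 1 was higher and 2 were lower, and 0 moved in either direction among markers of brown fat, red blood cells, basal keratinocytes, fibroblasts, macrophages and T cells. Over all genes tested 4.86% were higher and 7.18% lower at that threshold, and no marker passed an adjusted p under 0.05. In mouse 43 the summed CPM fell from 493.5 to 183.5 for fat cell markers and from 253.2 to 52.4 for red blood cell markers. That of brown or beige fat markers rose there from 185.8 to 427.9. In mouse 29 the fat cell sum rose from 258.3 to 1149 and the red blood cell sum from 122.5 to 260.0. The part of these cell types in the levels of the respiratory genes was not tested.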

How the data were processed

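RNA-seq of ear clips from 8 mice at 2 ages was analysed in 16 libraries (TruSeq RNA v2, single-end). According to the submitters' processing notes the tools were CASAVA 1.8.4, TopHat2 2.1.0 and HTSeq 0.6.1p1 on mm10. The authors deposited raw read counts per Ensembl gene for each library, without normalisation. Whether strand entered the counting is not given in the sources used here, and the kit does not mark it, so the 35 members that overlap another gene, 10 of them on the same strand, are less certain. The 5 summary lines of the table (18.7% to 21.1% of reads) and 0 columns of other samples were set aside. Of 45706 identifiers 45143 matched GENCODE M21, which gave symbols, positions and exon lengths. The members and all gene lists were chosen with earlier results of these data known.

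The test on the counts was that of edgeR 4.0.16 in R 4.3.3 (TMM, filterByExpr, quasi-likelihood test, terms for mouse and age). Mouse was a term because the paper describes sampling the same animals at both ages, and the titles of a pair share the mouse number. The p-values were adjusted by Benjamini-Hochberg over 21526 genes at 0.05. As a check of the pairing, deviations from the age means had a median correlation of -0.023 within and -0.005 between mice over all genes, and of 0.155 and -0.052 over members. Over members the same-mouse correlation ran from -0.876 in mouse 43 to 0.467 in mouse 50. Over all genes the best match was the same mouse only for mice 14, 64 and 75, so this check did not bear out the pairing. Within-mouse changes are differences in log2(CPM + 1), a scale that understates changes of low genes. Relations to muscle markers were tested two-sided over all orders of 8 mice (Python 3.11.15, scipy 1.17.1). The paired edgeR test was also tested on simulated counts. Alternatives were DESeq2 1.42.0 with its Wald test, DESeq2 size factors, total counts, no filter, no block on the mouse, age in months and each mouse left out; the muscle covariate and the addition of pseudogene reads were chosen after seeing the data. Named were, in each complex, the genes with the highest and lowest level and the smallest p, the isoform families, the Sdh genes, Cyc1 and Cycs, and genes with 1 direction in all mice. Members named besides these, and list genes, were chosen after their values were seen. Values of 1 member are not reported here by name.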

Additional observations from a re-analysis of the deposited data

Results flagged for a closer look

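For 38 sets of 8 mice (within-mouse changes of named genes and of groups), the lowest or highest mouse was compared with the others by Dixon's gap test, which by chance marks about 1 set in 20. In 2 sets a mouse stood apart, and in both it was mouse 43. The change of Sdhb was -0.72 in log2(CPM + 1) there and 0.15 to 0.39 in the other 7 mice, a gap of 0.788 of the whole range, above the 95% critical value for 8 values. The change of Uqcrfs1 was -0.57 there and -0.05 to 0.28 in the other mice, a gap of 0.613 of the range.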

How the results depend on the processing

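The count of members past an adjusted p of 0.05 was 0 under every alternative run and with each mouse left out. The median log2 change of all members stayed positive except with the muscle marker level as covariate (-0.009) and ranged from 0.038 to 0.177 with a mouse left out, with 0.044 to 0.189 for complex I, 0.020 to 0.131 for complex II, 0.033 to 0.187 for complex III, 0.046 to 0.176 for complex IV and 0.020 to 0.147 for complex V. The number of members higher at an unadjusted p under 0.05 was 1 (Cox6a1) with DESeq2 size factors and with DESeq2's Wald test, and 0 to 40 with a mouse left out. With DESeq2 size factors 1153 of 21526 genes were higher at that threshold, and with DESeq2's Wald test 1107. The number lower was 0 without the replicate block and 0 to 1 with a mouse left out. Leaving out the block on the mouse changed no other call, with a median of 0.088. The number with a muscle marker coefficient past the adjusted threshold was 3 to 46 with a mouse left out, in fits that called 1.25% to 3.74% of all genes.

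The sign of Ndufa4l2 changed to 0.006 with DESeq2 size factors, 0.003 with DESeq2's Wald test and 0.166 without the replicate block. With a mouse left out its log2 fold change was -0.171 to 0.146, that of Sdha -0.052 to 0.092, Sdhc -0.030 to 0.075, Cox4i2 -0.173 to 0.019, Atp5a1 -0.015 to 0.112, Atp5b -0.049 to 0.094 and Atp5g1 -0.037 to 0.140. With the muscle covariate the fold change became negative for Sdha (-0.068), Sdhc (-0.054), Sdhd (-0.009), Cyc1 (-0.025), Cox6a2 (-0.007), Cox7a1 (-0.280), Cox8b (-0.076), Atp5a1 (-0.031), Atp5b (-0.055), Atp5g1 (-0.107), Atp5g2 (-0.009), Atp5g3 (-0.008) and Cycs (-0.017). None of these genes passed the adjusted threshold under any setting, and the cause was not tested. Adding pseudogene reads left the median at 0.081. Replicates are 8 animals, which limits the precision, while Cox6b2 and Cox4i2, at 1.07 to 3.57 CPM, also rest on few reads.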

Other observations

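Although most members were higher at 30 months in both mouse 13 (64 of 84) and mouse 64 (76 of 84), the order of the changes differed between these mice. Ndufv1 was at 0.70 in log2(CPM + 1) in mouse 13 and 0.07 in mouse 64, Atp5b at 0.60 and -0.05, Uqcrc1 at 0.55 and -0.07, Atp5a1 at 0.51 and -0.025 and Sdha at 0.51 and -0.010. Conversely, Uqcrh was at -0.18 in mouse 13 and 0.49 in mouse 64, Cox6b1 at -0.12 and 0.41, Ndufa6 at -0.07 and 0.53, Cox7a2 at -0.06 and 0.58 and Ndufs8 at -0.03 and 0.46. Cox5a was higher in both, at 0.525 and 0.24. These genes were chosen after their values were seen and stand for no class of subunits.

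Across the 84 members the rank correlation of the changes between these mice was -0.296, and -0.041 across all other genes tested. It was 0.705 between mice 14 and 64 (0.346 across other genes) and -0.621 between mice 14 and 43 (-0.293 across other genes). The rank correlation of the change with exon length was 0.269 across members in mouse 13 and -0.400 in mouse 64, beside 0.106 and -0.268 across 21402 genes. Over the 8 mice it ranged from -0.400 to 0.269 across members and from -0.268 to 0.109 across all genes. Genes are not independent replicates, and the part of transcript length in these changes was not tested.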
